A study of Homo sapiens with 20 samples.

Results

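The 10 genes described here mark the epithelial and the mesenchymal state of a cell or drive the passage between them: the epithelial genes CDH1 and GJB1, the mesenchymal genes CDH2, VIM and FN1, and the transcription factors SNAI1, SNAI2, ZEB1, ZEB2 and TWIST1. They were taken as a fixed list of 10 symbols, and every probe whose RefSeq accession belongs to one of them was read, which gave 14 probes. Of these, 13 passed the filter on dim signals, and each of the 10 genes is among the 22214 genes tested. The cells were HepaRG, a human hepatoma line of bipotent progenitors that can differentiate towards hepatocyte-like and biliary-like cells, and the question was how dimethyl sulfoxide (DMSO), a solvent used to complete this differentiation, bears on gene expression. Cy3-labelled RNA was measured on 20 one-color Agilent arrays, 4 for each of 5 conditions.

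All conditions used the same line in medium with serum, insulin and hydrocortisone, and no gene was altered. D4 and D15 are cells at day 4 and day 15 after seeding, neither exposed to DMSO. D30 − DMSO was kept to day 30 in the same medium, and D30 + DMSO received 2% DMSO from day 15 to day 30. D34 ± DMSO had the same DMSO treatment and then spent 4 days without it, to day 34. D34 ± DMSO therefore differs from D30 + DMSO in age as well as in removal, and no cells kept in DMSO to day 34 were among the conditions. HepaRG is 1 line, and the study's methods describe the replicates of a condition as biologically independent, so the p-values measure the spread between cultures of this line.

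Epithelial cells are held together by adherens junctions, whose core is E-cadherin, and exchange small molecules through gap junctions built of connexins. In an epithelial-mesenchymal transition, factors of the SNAI, ZEB and TWIST families repress epithelial genes, E-cadherin among them, and cells gain N-cadherin, vimentin filaments and a fibronectin matrix. Hepatocytes are unusual epithelial cells in that they carry E-cadherin and N-cadherin together, and they secrete fibronectin into the plasma.

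A level is given as the log2 of the processed signal relative to the 75th percentile of the array, so that 0 is that percentile and 1 unit is a 2-fold difference. Levels of different probes cannot be set against each other, and each gene is compared with itself. Differences between conditions come from one limma fit over all 22214 genes, and a difference was called where it exceeded 2-fold with a p, adjusted by the method of Benjamini and Hochberg, under 0.005. The 4 values of a condition are given for replicates 1 to 4. Arrays of 2 conditions without overlap are common among all genes. The share was 24.2% from D4 to D15, 24.5% for DMSO at day 30 and 22.9% for its removal. Over the 10 pairs it ran from 2.23% (D30 − DMSO against D15) to 37.6% (D30 + DMSO against D4). A bulk level cannot tell fewer cells of a type from less RNA per cell.

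The arrays lie on 4 slides and were scanned in 2 sessions. Replicate 4 of each condition and replicate 3 of D15 and of D30 + DMSO were scanned in the second session. Over the 10 genes and 10 pairs of conditions, 20 differences were called, and all 20 had the same direction within each session. They were called on these same arrays pooled, so this likeness was partly fixed beforehand. Most of them share the arrays of D4, of which the second session holds 1. In the second session, with few arrays, the smallest in size was -0.035 (TWIST1 at D30 − DMSO against D4). Of the 10 hepatocyte markers checked, 8 were well above background on all 4 arrays of D4 and 10 on all arrays of the later conditions, and the defining factor HNF4A was well above background on none of the arrays of D4. Their summed level rose from between 211 and 479 times the 75th percentile at D4 to between 1873 and 2885 at D15. Of 8 biliary or progenitor markers, 5 were well above background on all 4 arrays in each condition. EPCAM and CFTR were well above background on no array of any condition. The summed level of this list was between 249 and 424 at D4 and between 153 and 226 at D30 + DMSO.

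CDH1 (NM_004360, chromosome 16) encodes E-cadherin. Its level was -0.61, -0.83, -0.83 and -0.74 at D4. It was 1.47, 1.36, 0.90 and 1.31 at D15. The conditions did not overlap, and every array of D15 lay above the 75th percentile while every array of D4 lay below it. The difference was 2.01 ± 0.29 (SE), a 4.03-fold rise (limma adjusted p = 2.83e-05), and it was 2.17 in the first scan session and 1.84 in the second.

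At D30 − DMSO the values of CDH1 were 2.12, 2.03, 2.03 and 1.02. At D30 + DMSO they were 2.03, 2.07, 1.59 and 0.69. At D34 ± DMSO they were 2.44, 1.92, 1.80 and 1.55. These conditions overlapped, and replicate 4 was the lowest array in each of them. Over the conditions, CDH1 was on average 0.55 lower in the second scan session than in the first, and the part of the session in these values was not tested. The difference of D30 + DMSO from D30 − DMSO was -0.20, with a 95% interval from -0.80 to 0.40 (limma adjusted p = 0.736). That of D34 ± DMSO from D30 + DMSO was 0.33, with an interval from -0.27 to 0.93 (limma adjusted p = 0.505). The rise from D4 was 5.87-fold for D30 − DMSO, 5.09-fold for D30 + DMSO and 6.41-fold for D34 ± DMSO, and each was called. Ordered by mean level, D4 was lowest, followed by D15, then D30 + DMSO, then D30 − DMSO and last D34 ± DMSO, and only the step from D4 to D15 was called between neighbours.

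GJB1 (NM_000166, chrX:71215239-71225516 in GRCh38.p14) encodes connexin 32, the main gap junction protein of hepatocytes. It had the widest range of the 10 genes. The RefSeq promoter table holds 13 windows of 300 bases, from 250 before to 50 after a gene start, for 6 of the 10 genes (CDH2, FN1, GJB1, VIM, ZEB1 and ZEB2). The letters CAGGTG, read on either strand, are the E-box form bound by SNAI and ZEB factors. They occurred in 3 of the 13 windows, 1 of GJB1 and the others of ZEB1, and in 20.6% of the 35116 windows of all genes. The 30 bases around the E-box of GJB1 are shown because the gene moved most, with the match in capitals, on the plus strand of GRCh38.p14 at chrX:71215257-71215286, where the match begins at position 31 counted from the start.
GJB1 E-box: ggcagcagcagcCAGGTGtggcagtgacag
A match of letters is a description of the reference, and binding was not measured on these arrays.

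The level of GJB1 at D4 was -4.47, -4.31, -4.93 and -3.13, with 2 of the 4 arrays well above background. At D15 it was 0.50, 0.49, 0.84 and 1.28, with all 4 arrays well above background. The conditions were far apart, and the highest array of D4 was the replicate scanned in the second session. The rise of 4.99 ± 0.27 (SE) was 31.7-fold (limma adjusted p = 2.8e-10). It was 5.07 within the first scan session and 4.19 within the second. With normexp background correction and an offset of 50, which compresses dim signals, the rise was 3.16, and it stayed called.

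At D30 − DMSO the GJB1 level was 1.03, 1.05, 1.14 and 1.04. At D30 + DMSO it was 1.99, 1.72, 2.02 and 2.07. After removal, at D34 ± DMSO, it was 1.42, 1.33, 1.33 and 1.17. The arrays of D30 + DMSO lay above all arrays of the other conditions, and those of D34 ± DMSO lay between D30 − DMSO and D30 + DMSO. Against D15, D30 + DMSO was 2.25-fold higher (log2 1.17 ± 0.27 SE, limma adjusted p = 0.00345). This call was lost without any one of replicates 1 to 3 of D15 or any one of replicates 1 to 4 of D30 + DMSO, with differences between 1.08 and 1.25 and adjusted p-values between 0.00576 and 0.0146. Against D30 − DMSO the difference was 0.89 (limma adjusted p = 0.0245), below the 2-fold limit. After removal it was -0.63 (limma adjusted p = 0.104), with a 95% interval from -1.19 to -0.08. Ordered by mean level, D4 was followed by D15, then D30 − DMSO, then D34 ± DMSO and last D30 + DMSO, and again the step from D4 to D15 was the one called between neighbours.

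limma's F-test over the 5 conditions, with limits of 0.001 on the Bonferroni-adjusted p and of 3-fold on the range of the condition means, called GJB1 alone of the 10 genes, against 5.36% of all genes. Its adjusted p was 6.97e-10 over a 71.5-fold range. CDH1 reached 0.0022 over a 6.41-fold range and SNAI2 0.00351 over a 2.93-fold range. The genes whose levels followed GJB1 most closely over the 20 arrays were TF, which encodes the plasma protein transferrin, with Pearson r = 0.995, HAO1, a peroxisomal oxidase of the liver, with r = 0.994, and GLTPD2 with r = 0.994. The 20 arrays share 5 conditions, so these correlations mainly describe the condition means.

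**Figure D1:**
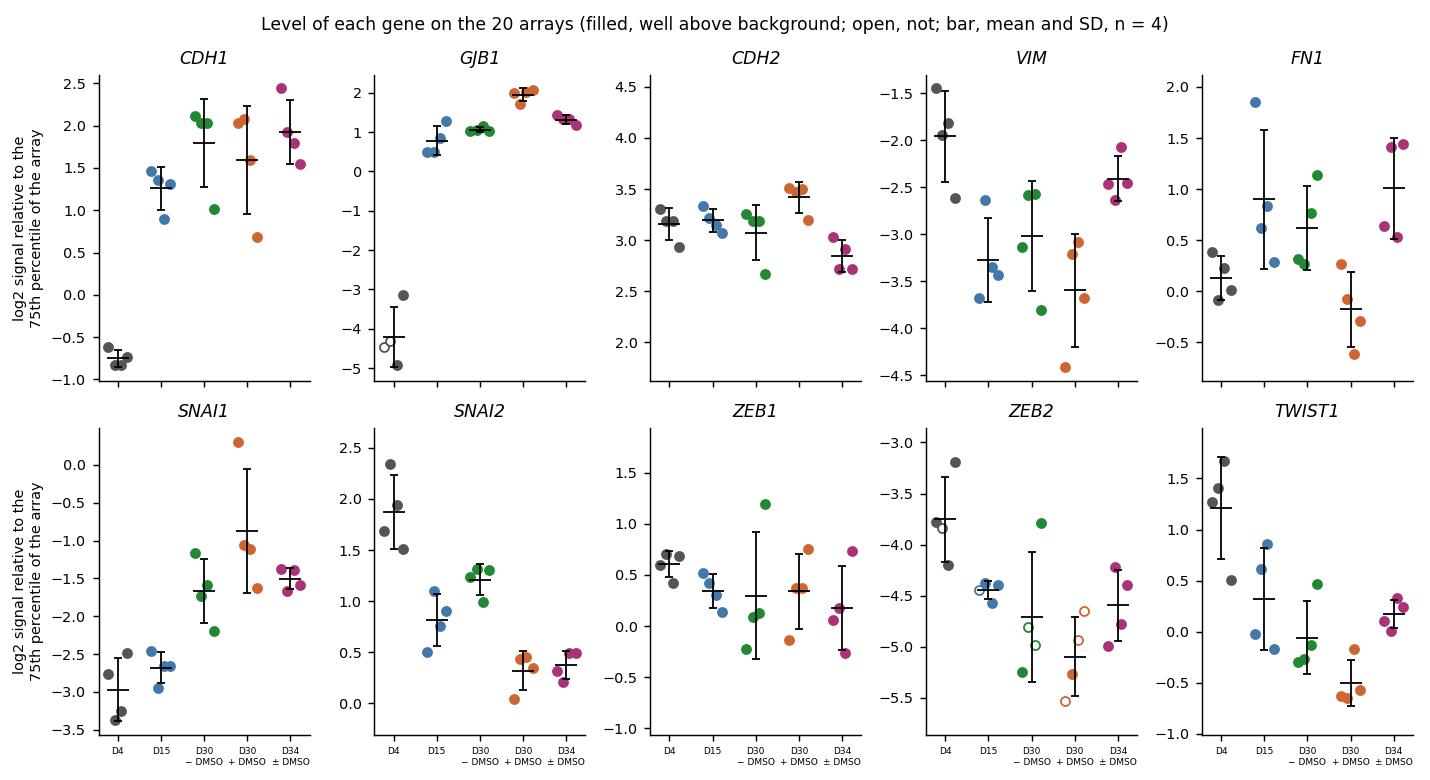
Level of the 10 genes on the 20 arrays, as log2 signal relative to the 75th percentile of the array (vertical axis, with a range of its own in each panel), for the 5 conditions (horizontal axis). Filled points were well above background, open points were not, and black bars are the mean and SD of 4 arrays. By mean level, CDH1, GJB1 and SNAI1 stood lowest at D4, and VIM, SNAI2, ZEB1, ZEB2 and TWIST1 highest at D4. The arrays of ZEB1 overlapped in all conditions, and those of TWIST1 and of SNAI1 overlapped between D4 and D15.

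CDH2 (NM_001792) encodes N-cadherin. Its level was 3.30, 3.19, 3.19 and 2.93 at D4. It was 3.33, 3.22, 3.15 and 3.07 at D15. Both conditions covered the same range, and the difference was 0.04, with a 95% interval from -0.26 to 0.34 (limma adjusted p = 0.906). CDH2 was 3.25, 3.18, 3.19 and 2.67 at D30 − DMSO. It was 3.51, 3.47, 3.50 and 3.19 at D30 + DMSO. It was 3.03, 2.72, 2.91 and 2.71 at D34 ± DMSO. The arrays of D30 + DMSO lay above those of D34 ± DMSO with no overlap, by 1.49-fold. This difference was -0.57 ± 0.14 (SE, limma adjusted p = 0.00617), which passed neither limit. CDH2 was called in none of the 10 pairs of conditions, and its condition means covered a 1.49-fold range. The second CDH2 probe gave -0.53 for the same removal step (limma adjusted p = 0.0554). From D4 to D15 it gave -0.34, with an interval from -0.73 to 0.06, where the first gave 0.04.

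The distance between the 2 cadherins, as log2 CDH1 minus log2 CDH2 within an array and relative to its mean at D4, was 1.97 ± 0.22 (SD, n = 4) at D15. It was 2.63 ± 0.25 at D30 − DMSO, 2.09 ± 0.51 at D30 + DMSO and 2.99 ± 0.27 at D34 ± DMSO. With the second CDH2 probe these means were 2.35, 3.12, 2.48 and 3.34. These are given as values with no test. The 1.97 from D4 to D15 came almost wholly from CDH1, which differed by 2.01 where CDH2 differed by 0.04. Of the wider distance after removal, 0.33 came from CDH1 and 0.57 from the lower CDH2, and neither difference was called.

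VIM (NM_003380, chromosome 10) encodes vimentin, the intermediate filament protein of mesenchymal cells. It was -1.45, -1.95, -1.82 and -2.62 at D4. It was -3.68, -2.64, -3.34 and -3.43 at D15. Every array of D15 lay below every array of D4, although D15 replicate 2 (-2.64) lay just below D4 replicate 4 (-2.62). The difference of -1.31 ± 0.33 (SE) had an adjusted p of 0.00557 in limma and was not called. It was called without D4 replicate 4 (-1.53, adjusted p = 0.00224) and without D15 replicate 2 (-1.53, adjusted p = 0.00284). Within the scan sessions it was -1.42 and -0.77.

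VIM was -3.13, -2.58, -2.57 and -3.80 at D30 − DMSO. It was -4.41, -3.21, -3.09 and -3.68 at D30 + DMSO. It was -2.47, -2.64, -2.07 and -2.46 at D34 ± DMSO. The arrays with DMSO overlapped those of the same day without it, and the difference was -0.58, with a 95% interval from -1.26 to 0.11 (limma adjusted p = 0.269). Its sign differed between the scan sessions, with -1.05 in the first and 0.42 in the second. After removal all 4 arrays lay above those of D30 + DMSO, by 1.19 ± 0.33 (SE, 2.28-fold), with an adjusted p of 0.0128 in limma, which was not called. From D4 to D30 + DMSO VIM fell 3.11-fold (limma adjusted p = 0.000465), by 2.07 within the first scan session and 0.76 within the second on the log2 scale. With normexp correction the log2 difference was -0.69 and no longer past 2-fold. VIM was dim at D30 + DMSO, with processed signals of 15.3, 38.5, 35.5 and 26.5 intensity units, all well above background.

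FN1 (NM_054034, chromosome 2) encodes fibronectin, a protein of the extracellular matrix and, from hepatocytes, of the plasma. It was 0.38, -0.09, 0.23 and 0.01 at D4. It was 1.86, 0.62, 0.84 and 0.28 at D15. D15 replicate 1 stood highest of all 20 arrays, and the conditions overlapped (difference 0.77, limma adjusted p = 0.0827). FN1 was 0.31, 0.27, 0.77 and 1.14 at D30 − DMSO. It was 0.27, -0.08, -0.61 and -0.29 at D30 + DMSO. It was 0.64, 1.42, 0.53 and 1.45 at D34 ± DMSO. All arrays of D30 + DMSO lay below those of D34 ± DMSO, and they lay below those of D30 − DMSO by a narrow margin, 0.27 on the nearest array of each. The differences were -0.80 with DMSO (limma adjusted p = 0.0832) and 1.18 after removal (2.27-fold, limma adjusted p = 0.0088), and FN1 was called in none of the 10 pairs.

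SNAI1 (NM_005985, chromosome 20) encodes the repressor Snail. It was -2.77, -3.38, -3.25 and -2.49 at D4. It was -2.46, -2.95, -2.66 and -2.66 at D15. These overlapped, and the difference was 0.29, with a 95% interval from -0.37 to 0.95 (limma adjusted p = 0.604). SNAI1 was -1.16, -1.73, -1.59 and -2.19 at D30 − DMSO. It was 0.30, -1.06, -1.11 and -1.62 at D30 + DMSO. It was -1.37, -1.66, -1.40 and -1.58 at D34 ± DMSO. All arrays of the 3 late conditions lay above all arrays of D15, and D30 + DMSO replicate 1 stood highest by more than 1 unit.

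From D15 to D30 + DMSO SNAI1 rose 3.50-fold (log2 1.81 ± 0.31 SE, limma adjusted p = 0.000334). The difference was 2.32 in the first scan session and 1.29 in the second. From D15 to D30 − DMSO the difference was 1.01 (2.02-fold), with an adjusted p of 0.94 in limma at a step where 0.0135% of all genes were called. The 95% interval of this difference, not adjusted for the number of genes, ran from 0.36 to 1.67. D30 + DMSO and D30 − DMSO overlapped and differed by 0.80 (limma adjusted p = 0.09), with an interval from 0.14 to 1.45. Against D4, SNAI1 was 2.47-fold higher at D30 − DMSO (limma adjusted p = 0.00391), 4.28-fold at D30 + DMSO (limma adjusted p = 2.26e-05) and 2.77-fold at D34 ± DMSO (limma adjusted p = 0.0017). The first of these calls was lost without any one of replicates 1 to 3 of either condition, with adjusted p-values between 0.00712 and 0.0188. The last was lost without D4 replicate 2 or 3 or without D34 ± DMSO replicate 1 or 3, with adjusted p-values between 0.00587 and 0.00808. With normexp correction they were 0.71 and 0.85 on the log2 scale, below 2-fold. SNAI1, a repressor of CDH1, and CDH1 were thus both above their D4 level in the 3 late conditions.

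SNAI2 (NM_003068, chromosome 8) encodes the related repressor Slug and moved the other way. It was 1.69, 2.34, 1.94 and 1.51 at D4. It was 0.50, 1.10, 0.76 and 0.91 at D15. The conditions did not overlap, and the fall of 1.05 ± 0.17 (SE) was 2.08-fold (limma adjusted p = 0.000127). It lay close to the 2-fold limit and dropped below it without D4 replicate 2 (-0.90), without D15 replicate 1 (-0.95) and with normexp correction (-0.98). It was also lost with only the arrays of D4 and D15 in the fit (limma adjusted p = 0.00783) and by the methods' t-test. Within the scan sessions it was -1.19 and -0.68.

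SNAI2 was 1.23, 1.32, 0.99 and 1.30 at D30 − DMSO. It was 0.04, 0.43, 0.45 and 0.35 at D30 + DMSO. It was 0.31, 0.21, 0.49 and 0.50 at D34 ± DMSO. All arrays with DMSO lay below all arrays of the same day without it, and those after removal overlapped the arrays of D30 + DMSO. The difference with DMSO was -0.89 ± 0.17 (SE, limma adjusted p = 0.00101), a 1.86-fold difference that missed the 2-fold limit. After removal the difference was 0.06, with a 95% interval from -0.30 to 0.42 (limma adjusted p = 0.88), so that a return to the level of D30 − DMSO, 0.89 higher, lay outside the interval. D34 ± DMSO lay 0.83 below D30 − DMSO (limma adjusted p = 0.00607). Against D4 the fall was 2.93-fold at D30 + DMSO (limma adjusted p = 6.36e-07) and 2.82-fold at D34 ± DMSO (limma adjusted p = 2.39e-06). At D30 − DMSO the difference from D4 was -0.66, under 2-fold.

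TWIST1 (NM_000474, chromosome 7) encodes a basic helix-loop-helix factor of mesoderm. It was 1.27, 1.40, 1.67 and 0.50 at D4. It was -0.02, 0.61, 0.86 and -0.17 at D15. D4 replicate 4 stood well below the other arrays of D4 and inside the range of D15. The difference was -0.89 ± 0.25 (SE, limma adjusted p = 0.0145) and was called without D4 replicate 4 (-1.13, adjusted p = 0.00175). It was -1.15 within the first scan session and -0.16 within the second.

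TWIST1 was -0.30, -0.26, -0.13 and 0.47 at D30 − DMSO. It was -0.63, -0.65, -0.17 and -0.57 at D30 + DMSO. It was 0.11, 0.01, 0.33 and 0.24 at D34 ± DMSO. All 3 late conditions lay below all arrays of D4, and D30 + DMSO had the lowest mean. Against D4 the fall was 2.41-fold at D30 − DMSO (limma adjusted p = 0.000864) and 3.28-fold at D30 + DMSO (limma adjusted p = 2.15e-05). At D30 − DMSO it was -1.68 within the first scan session and -0.035 within the second, which holds replicate 4 of each condition, and at D30 + DMSO it was -2.08 and -0.87. With only the arrays of D4 and D30 − DMSO in the fit, the first of these calls was lost (limma adjusted p = 0.00985). At D34 ± DMSO the difference from D4 was -1.04 (limma adjusted p = 0.00518), just short of the threshold. It was called without D4 replicate 4 (-1.27, adjusted p = 0.000652), and with the slide (adjusted p = 0.00479), the scan session (0.00395) or the replicate number (0.00266) as a block. It was -1.30 within the first scan session and -0.26 within the second. DMSO at day 30 gave -0.45 (limma adjusted p = 0.272) and removal 0.68 (limma adjusted p = 0.0673). In the second TWIST1 probe the difference from D4 was -0.84 at D15, -1.25 at D30 − DMSO, -1.36 at D30 + DMSO and -1.06 at D34 ± DMSO, and the last 3 were called.

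The ZEB factors repress epithelial genes and are themselves held down by microRNAs in epithelial cells. ZEB1 (NM_001128128, chromosome 10) was 0.60, 0.71, 0.43 and 0.69 at D4. It was 0.52, 0.42, 0.31 and 0.14 at D15. In the late conditions its 12 values lay between -0.26 and 1.20, with D30 − DMSO replicate 4 highest. ZEB1 was called in none of the 10 pairs, with differences between conditions of at most 0.43. Its largest, D34 ± DMSO against D4, was -0.43 with a 95% interval from -0.98 to 0.12 (limma adjusted p = 0.268). The second ZEB1 probe gave -0.49 for the same pair (limma adjusted p = 0.334).

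ZEB2 (NM_014795, chromosome 2) gave dim signals. It was -3.78, -3.83, -4.20 and -3.19 at D4, with 3 of 4 arrays well above background. It was -5.53, -5.27, -4.94 and -4.65 at D30 + DMSO, with 1 of 4 arrays well above background. The conditions did not overlap, and the fall was 2.54-fold (log2 -1.34 ± 0.28 SE, limma adjusted p = 0.000696). Under normexp correction the difference was -0.07 (limma adjusted p = 0.722), and under quantile normalization it was -1.32 with an adjusted p of 0.00983. ZEB2 was between -4.57 and -4.37 at D15, between -5.24 and -3.79 at D30 − DMSO and between -4.99 and -4.22 at D34 ± DMSO. The second ZEB2 probe was well above background on all 4 arrays of no condition and was not tested.

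**Figure D2:**
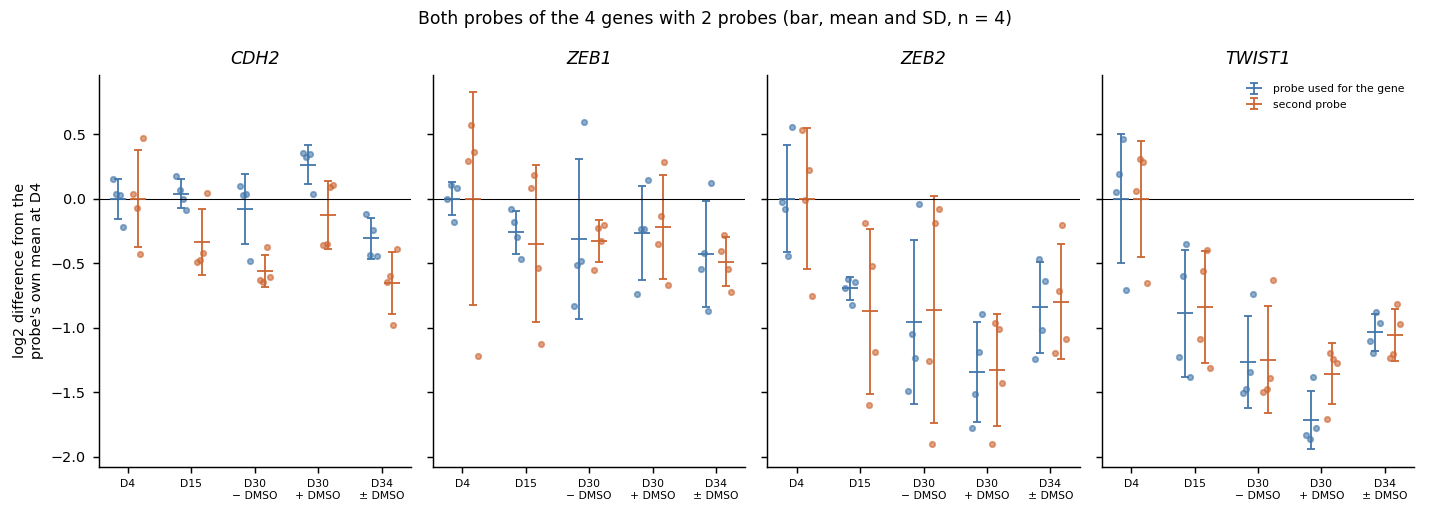
Log2 difference from the probe's own mean at D4 (vertical axis) on the 20 arrays for both probes of CDH2, ZEB1, ZEB2 and TWIST1, by condition (horizontal axis). Points are arrays and bars the mean and SD of 4 arrays. Both TWIST1 probes stood more than 1 unit below D4 in the 3 late conditions, the CDH2 probes gave means of 0.04 and -0.34 at D15, and the second ZEB2 probe was left out of all tests.

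From D4 to D15 limma called 3 of the 10 genes, CDH1 and GJB1 higher and SNAI2 lower, where 9.55% of all genes were called, 5.72% upward and 3.83% downward. From D15 to D30 − DMSO none of the 10 was called, where 0.0135% of all genes were. From D15 to D30 + DMSO, GJB1 and SNAI1 were called higher, where 6.53% of all genes were called and 2.24% were higher. DMSO at day 30, removal of DMSO and the comparison of D34 ± DMSO with D30 − DMSO gave no call among the 10, where 5.97%, 7.1% and 1.51% of all genes were called. With DMSO, 1.74% of all genes were higher and 4.23% lower, and on removal 5.12% were higher and 1.98% lower. By the methods' own test, 0 of the 10 were called at these 3 steps. That test called fewer genes in general: from D15 to D30 + DMSO it called 537 of all genes, where limma called 1450. Its counts of all genes at these 3 steps are not given here, so no conclusion is drawn from the 0. At an adjusted p below 0.05 in limma, with no limit on the fold, 2, 3 and 1 of the 10 passed. Of all 22214 genes, 4062, 4737 and 1027 did. Between D34 ± DMSO and D15, where 2.02% of all genes were called, none of the 10 was called. At an adjusted p below 0.05 in limma, with no limit on the fold, 1 of the 10 and 1602 of all genes passed.

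Against D4, 3 of the 10 were called higher at D30 − DMSO (CDH1, GJB1 and SNAI1) and 1 lower (TWIST1), where 10.3% of all genes were called, 6.34% upward and 4% downward. At D30 + DMSO these 3 were higher and 4 lower (VIM, SNAI2, ZEB2 and TWIST1), where 18.5% of all genes were called, 8.98% upward and 9.48% downward. At D34 ± DMSO the 3 were higher and SNAI2 lower, where 8.58% of all genes were called, 5.73% upward and 2.85% downward. CDH2, FN1 and ZEB1 were called in no pair. These 3 comparisons share the arrays of D4. The median log2 difference of the 10 genes at D30 + DMSO was -0.29, beside 0.04 for all genes.

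**Figure D3:**
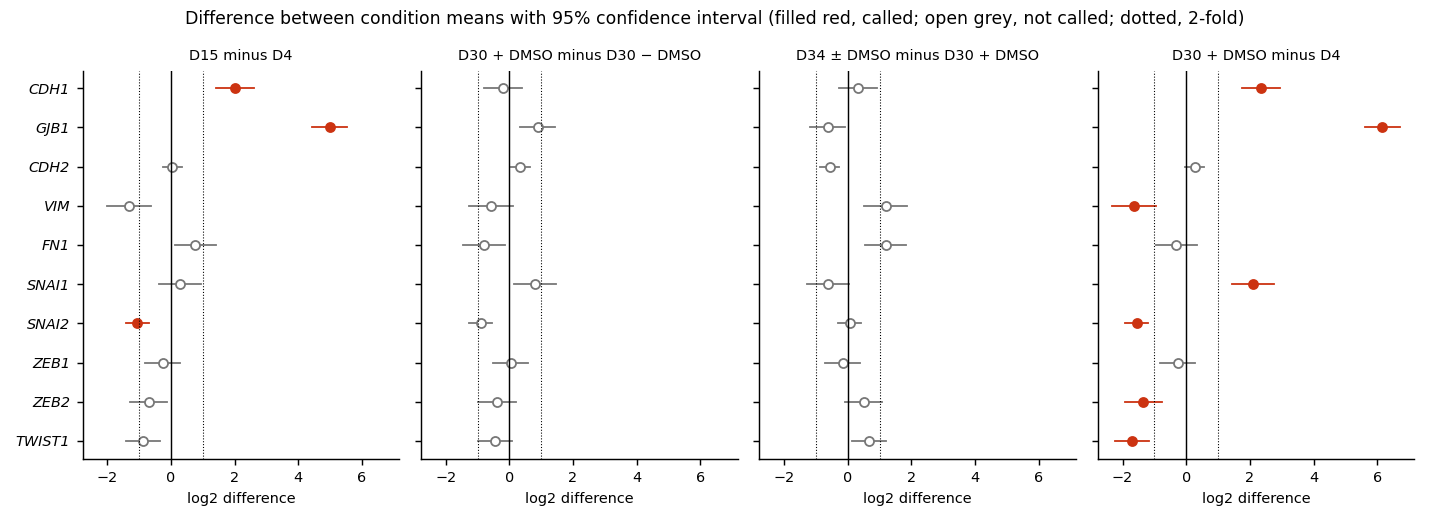
Log2 difference between condition means (horizontal axis) with its 95% confidence interval from limma for the 10 genes, for 4 pairs of conditions. Filled red points were called and dotted lines mark 2-fold. From D4 to D15 3 genes and from D4 to D30 + DMSO 7 genes were called, and none for DMSO at day 30 or its removal.

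Other genes of the pathway were read from fixed lists in the same fit, and the counts of a list stand beside the shares of all genes given above for the same step. Of 32 genes of epithelial junctions and polarity, 28 were tested, and from D4 to D15 12 rose and 1 fell, where 5.72% and 3.83% of all genes did, with a median difference of 0.49 beside 0.02 for all genes. Claudins seal tight junctions, and CLDN14 rose from a mean level of -3.82 to -0.82 and CLDN3 rose 4.69-fold. OCLN, which encodes the tight junction protein occludin, rose 4.15-fold, and MARVELD3, of the same family, was at least 3.56-fold higher, as it was well above background on no array of D4. The gene that fell was PKP3, a plakophilin of desmosomes, at least 8.50-fold lower at D15. With DMSO at day 30, 2 of the 28 rose and 2 fell, where 1.74% and 4.23% of all genes did, and the count of those that fell was near the background: CLDN14 by 4.49-fold and CLDN3 by 2.62-fold upward, CLDN2 by 2.68-fold and the desmosomal DSC2 by 2.01-fold downward. On removal CLDN2 and DSC2 rose, by 4.40-fold and 2.32-fold. At D30 + DMSO, 11 of the 28 were higher than at D4 and 5 lower, where 8.98% and 9.48% of all genes were. Among those lower were PKP3 (at least 8.06-fold), CLDN2 (3.65-fold), DSG2 (3.09-fold) and KRT19 (2.19-fold).

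Of 16 regulators of the epithelial state, 12 were tested. From D4 to D15 4 rose and 1 fell, where 5.72% and 3.83% of all genes did, with a median of 0.58. HNF4A, the nuclear receptor central to hepatocyte identity, was at least 4.02-fold higher, FOXA1 rose 2.61-fold and the splicing factor ESRP2 2.31-fold, while KLF5 fell 2.95-fold. No gene of this list was called for DMSO at day 30 or its removal.

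Of 30 mesenchymal genes, 24 were tested. From D4 to D15 11 fell, where 3.83% of all genes did, and none rose, with a median of -1.17. With DMSO at day 30, 10 fell and 1 rose, where 4.23% and 1.74% of all genes did, with a median of -1.16 beside 0.03 for all genes. On removal 7 rose, where 5.12% of all genes did, with a median of 0.97 beside -0.04 for all genes. At D30 + DMSO, 19 of the 24 were lower than at D4, where 9.48% of all genes were.

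POSTN, which encodes the matrix protein periostin, was 32.7-fold lower at D15 than at D4, 9.26-fold lower with DMSO at day 30 (2 of 4 arrays well above background) and 19.9-fold higher after removal. FAP, the fibroblast activation protein, was 7.90-fold lower at D15, at least 4.41-fold lower with DMSO and at least 4.14-fold higher after removal. TNC, which encodes tenascin C, fell 8.17-fold and DCN, the proteoglycan decorin, 7.91-fold with DMSO, and they rose 11.4-fold and 7.96-fold on removal. TNC was well above background on 2 of 4 arrays of D30 + DMSO and DCN on all 4. NT5E, which encodes the surface enzyme CD73, was the gene of the list that rose with DMSO, by 2.23-fold. In the same steps VIM, FN1 and CDH2 were not called.

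Of 10 markers of stellate cells or fibroblasts, 6 were tested. COL1A1 and LUM were called lower from D4 to D15, and DCN and LUM were called lower with DMSO and higher on removal, and all 3 are genes of the mesenchymal list as well. The other 4 markers at each step were not called. The summed level of the markers was between 35.0 and 55.9 times the 75th percentile at D4, between 16.3 and 24.1 at D15 and between 14.8 and 28.7 at D30 − DMSO. It was between 5.38 and 6.92 at D30 + DMSO and between 15.4 and 30.5 at D34 ± DMSO. The sum is on a linear scale, where bright genes weigh most. DCN and LUM, called above, had mean log2 levels of 4.38 and 3.65 at D4. COL1A2 and PDGFRB were well above background on no array of any condition. The 8 proliferation markers summed to between 72.5 and 97.7 at D4, between 19.4 and 30.6 at D15, between 18.0 and 23.7 at D30 + DMSO and between 53.2 and 80.9 at D34 ± DMSO. The part of either group in the differences of the 10 genes was not tested.

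**Figure D4:**
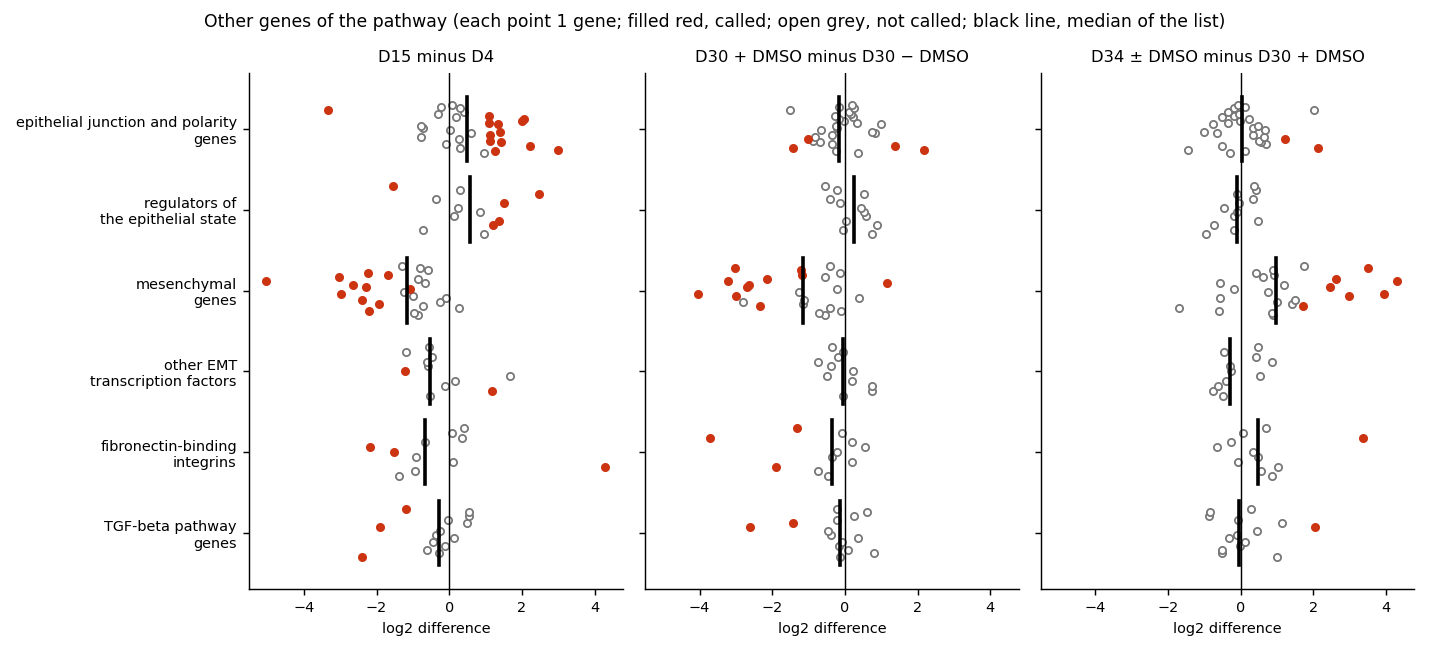
Log2 difference of each tested gene of 6 lists (horizontal axis) for the step from D4 to D15, for DMSO at day 30 and for its removal. Each point is 1 gene, filled red where called, and black lines are the medians of the lists. The mesenchymal genes had medians of -1.17, -1.16 and 0.97 in the 3 panels.

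Among 11 tested transcription factors of the transition other than the 5 above, 1 rose and 1 fell from D4 to D15, near the 5.72% and 3.83% of all genes, and the one that rose was FOXQ1, by 2.25-fold. At D30 + DMSO 1 was higher and 5 lower than at D4, where 8.98% and 9.48% of all genes were, with TCF3 2.63-fold and TWIST2, the paralog of TWIST1, 2.39-fold lower. Of 14 tested genes of the TGF-beta pathway, the classical inducer of the transition, 3 fell from D4 to D15, where 3.83% of all genes did, among them the ligand gene TGFB2 by 3.77-fold and LTBP1, which anchors latent TGF-beta to the matrix, by 5.33-fold (3 of 4 arrays of D15 well above background). With DMSO at day 30 TGFB2 fell 6.09-fold and TGFB3 2.68-fold, and on removal TGFB2 rose 4.17-fold, with 3 of 4 arrays of D30 + DMSO well above background.

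Of 12 connexins other than GJB1, 5 were tested. From D4 to D15 1 of the 5 rose, where 5.72% of all genes did. It was GJB2, which encodes connexin 26, the partner of connexin 32 in liver gap junctions, and it rose 2.86-fold. At D30 + DMSO 1 was higher and 2 lower than at D4, where 8.98% and 9.48% of all genes were. GJA1, a connexin of many mesenchymal cells, was 2.61-fold lower at D30 + DMSO than at D4. At D34 ± DMSO, after removal, it was 3.00-fold lower than at D4. Of 11 tested cadherins and catenins beyond the pair above, JUP, which encodes plakoglobin, rose 2.65-fold from D4 to D15. CDH16 and CDH11, the latter a cadherin of mesenchymal cells, fell 12.7-fold and 5.05-fold with DMSO at day 30 and rose 5.05-fold and 3.30-fold on removal.

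Of 11 tested integrin genes of fibronectin receptors, 1 rose and 2 fell from D4 to D15, where 5.72% and 3.83% of all genes did, so that the single gene that rose was near the background. ITGB1, the shared beta subunit, fell 2.86-fold and ITGB3 4.50-fold, while ITGA8 was at least 4.24-fold higher. With DMSO at day 30 ITGB6, ITGA8 and ITGB8 fell, ITGB8 by 2.50-fold, and ITGB6 rose 10.3-fold on removal, with 1 of 4 arrays of D30 + DMSO well above background. Of 8 tested intermediate filament genes other than VIM, NEFL fell 3.24-fold and LMNB2 2.39-fold from D4 to D15, and LMNB1, NEFL and LMNB2 rose 7.74-fold, 4.16-fold and 4.03-fold on removal, NEFL with 1 of 4 arrays of D30 + DMSO well above background.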

How the data were processed

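RNA of HepaRG cells was measured on 20 Agilent 8x60K arrays, 4 for each of 5 conditions. The authors deposited the Feature Extraction output of each array (version 10.7.3.1 in the processing notes, 10.7.1.1 in the file headers). The processed signal they deposited is an intensity with the background subtracted and a trend over the array removed, and arrays were not scaled to each other. The median intensities of spots and of their background, and flags that score 0 or 1, were deposited too. A deposited table of log2 values by the authors was compared with the scaled log2 signal over the 21535 probes well above background on all 20 arrays. It equalled that signal after a baseline was set for each probe, with array shifts up to 0.0202. Dim probes, such as those of GJB1 and ZEB2, were outside this comparison.

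Outlier-flagged spots were left out, spots of a probe averaged, the signal divided by the array's 75th percentile over probes (between 283 and 526 intensity units), with a floor of 1 unit, before log2 was taken. A probe was kept where the 4 arrays of at least 1 condition all showed it well above background, which held for 26531 of 42405 probes (on single arrays, between 61.1% and 74.2% were well above background). Accessions were named through RefSeq (GRCh38.p14), and each gene was represented by its probe of highest mean. limma 3.58.1 in R 4.3.3 fitted 5 condition means, and the procedure was tested on simulated data. Promoter windows came from RefSeq. The number of arrays limits the precision.

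The genes, lists and tests were chosen with earlier results of these data known. Genes named from a list are at most the 4 called genes with the largest difference in each direction of a comparison, and some of these are not reported here. Where no array of a condition was well above background, the fold is a bound against the lowest signal well above background. The alternatives are named in the closing section. The comparisons with D4 other than that of D15, the comparison of D34 ± DMSO with D15, the percentile over spots, outlier-flagged spots kept and the fit without the second scan session were added after the data were seen.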

Additional observations from a re-analysis of the deposited data

Results flagged for a closer look

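Of 65 groups of 4 arrays (13 probes in 5 conditions), 8 had 1 array whose gap to the nearest other array exceeded Dixon's limit for 4 values, and chance gives about 1 in 20 such groups. CDH1 at D30 − DMSO had replicate 4 at 1.02 where the others lay between 2.03 and 2.12. The first CDH2 probe had replicate 4 low at D30 − DMSO (2.67, next 3.18) and at D30 + DMSO (3.19, next 3.47). The second CDH2 probe had replicate 4 high at D15 (1.63, next 1.17) and replicate 3 high at D30 − DMSO (1.21, next 0.98). The second TWIST1 probe had replicate 4 high at D30 − DMSO (-1.88, next -2.64) and replicate 1 low at D30 + DMSO (-2.96, next -2.53). The second ZEB1 probe had replicate 4 low at D4 (-2.24, next -0.73). Replicate 4, the replicate scanned in the second session in every condition, was the array set apart in 6 of the 8, and the part of the session was not tested. At D15 and D30 + DMSO replicate 3 was scanned in that session too. It lay near replicates 1 and 2 for the second CDH2 probe at D15 (1.17) and the first at D30 + DMSO (3.50). In groups that were not flagged, it also lay on the side of replicate 4. At D30 + DMSO, CDH1 was 1.59 and 0.69 in replicates 3 and 4, and 2.03 and 2.07 in replicates 1 and 2. The second CDH2 probe was 1.68 and 1.69 there, and 1.23 and 1.24 in replicates 1 and 2.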

How the results depend on the processing

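Of 2480 values of single genes under the alternatives, 2358 kept their direction and their side of the threshold, 44 uncalled ones changed sign, 42 lost a call, 36 gained one and none of the called values reversed. For D15 to D30 + DMSO, where 2 genes were called, 1 was called under quantile normalization, without a filter on dim probes, with the filter requiring all 20 arrays (8 of the 10 genes left) and with only the arrays compared, and 0 by the methods' t-test. In the same order, these settings called 1393, 1358, 1015, 1213 and 537 of all the genes that each tested. The methods' t-test also gave 2 for D30 − DMSO, 4 for D30 + DMSO and 2 for D34 ± DMSO against D4, and called 1312, 2683 and 719 of all 22214 genes there. It lost 10 of the 20 calls, 4 of SNAI1, 2 of SNAI2 (D15 and D34 ± DMSO against D4) and 1 each of GJB1, TWIST1, VIM and ZEB2. With only the arrays compared, D30 − DMSO against D4 gave 2 and D34 ± DMSO against D15 gave 1, where 1984 and 235 of all genes were called. At an adjusted p below 0.05, with no limit on the fold, the counts were 5 for D15 against D4, 5 for D30 + DMSO against D15, 2 for DMSO at day 30, 3 for its removal, 1 for D34 ± DMSO against D30 − DMSO, 7 for D30 − DMSO and 7 for D34 ± DMSO against D4, and 1 for D34 ± DMSO against D15. In the same order, 5258, 4418, 4062, 4737, 1027, 5857, 5480 and 1602 of all 22214 genes passed. The F-test called 0 genes with the filter requiring all 20 arrays, which leaves GJB1 out, and 2 with the slide or the scan session as a block, at an adjusted p below 0.05 and without the arrays of the second session. In the same order, it called 936, 1294, 1583, 1815 and 540 of all the genes that each setting tested. The cause of the other changes was not tested.

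Same-numbered replicates of different conditions deviated together (correlation above 0.1) in 27 of 40 pairs, with a median of 0.274, but the median was 0.387 for arrays of the same slide and 0.0653 for equal numbers on other slides, and 16 of 20 arrays correlated best with their own number, a hint from the data and not from the design, so the numbers were not taken as pairs. With the replicate number as a block, removal of DMSO gave 1 call, VIM, where 1790 of all genes were called, and the F-test 2, where 1327 were. In the same fit VIM from D4 to D15 (limma adjusted p = 0.00162) and TWIST1 from D4 to D34 ± DMSO (limma adjusted p = 0.00266) were called. Leaving out each array in turn gave between 2 and 5 calls for D15 against D4, with 5 without D4 replicate 4, where 2124 of all genes were called. It gave between 1 and 2 for D30 + DMSO against D15, and the fits with 1 called between 1224 and 1404 of all genes. For D30 − DMSO and for D34 ± DMSO against D4 it gave between 3 and 5, and for D30 + DMSO against D4 7 throughout. The F-test gave between 1 and 2, with 2 without D30 − DMSO replicate 4 or D30 + DMSO replicate 4, where 1169 and 1065 of all genes were called. The other pairs gave 0. Other alternatives tried were normexp correction, the authors' matrix values, a floor of 10 units, every probe tested and the mean of a gene's probes. ZEB2 and, at D4, GJB1 are limited by signals near background, and VIM at D30 + DMSO by dim signals, although these were well above background.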
